A study of Mus musculus with 30 samples.

Results

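Growth arrest and p53 response genes were followed in the livers of mice fed 5 diets that differed in the source and amount of protein. The group was set by name and holds 9 protein-coding genes of the 14173 genes in the count table. They are *Cdkn1a*, *Ccnd1*, *Gadd45a*, *Gadd45b*, *Gadd45g*, *Btg1*, *Btg2*, *Mdm2* and *Ccng1*, and each was found as 1 row of the table. Livers came from male C57BL6/J mice aged 6 months, which were killed after a short fast. Each diet was represented by 6 mice and each mouse by 1 library made from the 3′ ends of liver mRNA. The diets had been fed from young adulthood, and the labels name no transgene and no drug.

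The Cas-20% diet held 20% casein, with 0.57 g of methionine and 0.41 g of cysteine per 100 g of diet, and the Cas-5% diet held 5% casein with 0.15 g and 0.1 g. The Soy-20% diet held 20% soy protein with 0.22 g of each amino acid. The Soy-20% + SAA diet was the same protein level with sulfur amino acids (SAA) added, which brought methionine and cysteine to 0.58 g and 0.41 g, close to Cas-20%. The Soy-10% diet is named for 10% soy protein, while its listed composition gives 11.5%, and it held 0.13 g of each, close to Cas-5%. Restriction of casein was read as Cas-5% against Cas-20%, and restriction of soy as Soy-10% against Soy-20% + SAA and, with a smaller step in methionine, against Soy-20%.

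The transcription factor p53 is stabilised when DNA is damaged or a cell is stressed, and switches on genes that stop the cell cycle, repair DNA or start cell death. *Cdkn1a*, *Mdm2*, *Ccng1*, *Gadd45a* and *Btg2* are classical targets, and *Mdm2* closes the loop because its protein marks p53 for destruction. The *Gadd45* and *Btg* genes also answer to signals other than p53, including nutrients, hormones and cytokines. Most hepatocytes of an adult liver do not divide, so in this tissue these genes are read mainly as markers of stress, growth signals and metabolic state.

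The authors deposited raw counts of reads per gene and the same counts divided by a size factor per library, here called normalized counts. The raw counts summed to between 7694015 and 14565542 per liver. The hepatocyte markers *Alb*, *Apoa1*, *Ttr*, *Cps1*, *Hnf4a* and *Cyp2e1* were all present and summed to 698073 to 931610 normalized counts per liver in accord with the label of liver. Pancreatic acinar markers summed to 5087 normalized counts in Soy-10% liver 4 and to at most 3.22 in any other liver, and its part in the results was not tested beyond leaving it out. Without that liver *Gadd45b* and *Btg2* were still called for soy restriction (log2 fold changes of 1.21 and -1.04, edgeR adjusted p = 0.010 and 0.0037), while *Btg1* was not (0.58, adjusted p = 0.058). A further 4 libraries stood apart. In Soy-20% + SAA livers 3 to 6 expression leaned toward genes with GC-rich 3′ ends, with slopes of 0.055, 0.176, 0.173 and 0.195 log2 units per 10% GC, against -0.065 to 0.035 in the other 26 livers. The fits that use Soy-20% + SAA were also made without these 4 livers. This leaves only livers 1 and 2 on that diet, so SEs can be wider and calls harder to reach. The casein diets also differed in library make-up. Mitochondrial genes took 19.2% to 23.6% of counts in the Cas-20% livers and 13.0% to 16.6% in the Cas-5% livers, and the 10 most abundant genes of a library took 29.4% to 34.1% and 24.8% to 27.6%, with no overlap in either. Their part in the casein results was not tested.

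The promoters of 8 of the 9 genes were searched for signal elements. Sequences of 300 bases, from 250 before the transcription start to 50 after it, were taken from RefSeq on GRCm38.p6, with 2 starts for *Cdkn1a*. The promoters of *Gadd45b* and *Btg2* are shown because these genes had the largest changes called for casein and for soy against Soy-20% + SAA, and the upstream promoter of *Cdkn1a* because it held the only pair of p53 decamers among them. They lie at chr10:80929841-80930140 on the forward strand (*Gadd45b*), chr1:134079106-134079405 on the reverse strand (*Btg2*) and chr17:29090729-29091028 on the forward strand (*Cdkn1a*). Each is written 5′ to 3′, and capitals mark the motif matches.
Gadd45b: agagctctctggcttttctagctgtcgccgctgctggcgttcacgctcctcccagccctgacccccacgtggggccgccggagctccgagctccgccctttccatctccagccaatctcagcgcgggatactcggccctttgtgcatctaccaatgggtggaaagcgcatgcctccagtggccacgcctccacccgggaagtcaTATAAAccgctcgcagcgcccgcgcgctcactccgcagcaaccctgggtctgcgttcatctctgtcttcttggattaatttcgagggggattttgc
Btg2: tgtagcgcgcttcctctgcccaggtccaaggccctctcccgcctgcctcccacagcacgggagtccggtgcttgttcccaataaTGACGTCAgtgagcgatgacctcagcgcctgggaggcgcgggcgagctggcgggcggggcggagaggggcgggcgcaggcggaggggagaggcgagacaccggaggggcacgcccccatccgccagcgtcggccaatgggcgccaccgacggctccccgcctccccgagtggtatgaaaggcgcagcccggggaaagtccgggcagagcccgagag
Cdkn1a: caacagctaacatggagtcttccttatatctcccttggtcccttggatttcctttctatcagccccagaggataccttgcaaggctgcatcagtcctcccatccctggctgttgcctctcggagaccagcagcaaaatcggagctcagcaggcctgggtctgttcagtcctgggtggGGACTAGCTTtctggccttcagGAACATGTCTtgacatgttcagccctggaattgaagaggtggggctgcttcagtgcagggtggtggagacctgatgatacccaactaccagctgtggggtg

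The capitals in *Gadd45b* are a TATA box (TATAAA, from -46 to -41, where -1 is the base before the start). Those in *Btg2* are a full cyclic AMP response element (TGACGTCA, -166 to -159), and those in *Cdkn1a* are the decamers GGACTAGCTT (-73 to -64) and GAACATGTCT (-51 to -42). Motifs were sought on both strands. A p53 decamer was also present in *Gadd45a* (GGGCTAGCCC), *Mdm2* (GAACTTGCCT) and *Ccng1* (GGGCAAGCCT), against 8.36% of all 32851 promoters. The cyclic AMP response element was present in *Btg2*, in none of the other promoters searched here, and in 1.79% of all promoters. *Gadd45g* held an amino acid response element (TGATGNAAN, 3.95% of promoters), read on the reverse strand, and a TATA box (13.6%), *Btg1* a TATA box and a FOXO site (GTAAACA, 3.65%), and *Mdm2* a FOXO site. None of the windows held an AP-1 site (TGANTCA, 7.81%), a STAT site (TTCNNNGAA, 8.30%) or an NF-kB site (8.46%). A match is only a run of letters, and binding was not measured.

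Over all 5 diets, *Gadd45b*, *Btg2*, *Ccnd1*, *Btg1* and *Mdm2* differed, 5 of 9 genes, while 43.4% of the 12561 genes tested did so (edgeR quasi-likelihood F test, called here where the Benjamini-Hochberg adjusted p did not exceed 0.05). Their adjusted p values were 1.6e-07, 4.5e-06, 6.9e-05, 0.0055 and 0.037. Of the classical p53 targets, *Btg2* and *Mdm2* were thus called, while *Cdkn1a* (edgeR adjusted p = 0.12), *Gadd45a* (0.54) and *Ccng1* (0.69) were not. *Gadd45g* (0.52) was not called either. For casein, and for soy against Soy-20% + SAA, *Gadd45b* was called higher and *Btg2* lower, with the largest log2 fold changes of the 9 in the fits of all 12 livers. With Soy-20% + SAA livers 3 to 6 left out, 3 of 9 were called, since *Btg1* (edgeR adjusted p = 0.46) and *Mdm2* (0.071) were lost, and 3433 genes of the whole table were called in place of 5450. With the GC covariate *Btg1* was lost as well (0.25), and 4 of 9 and 3537 of all genes were called. The call of *Mdm2* was also lost without Cas-20% liver 2 or 5 or Cas-5% liver 2 or 4, with adjusted p up to 0.14.

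**Figure D1:**
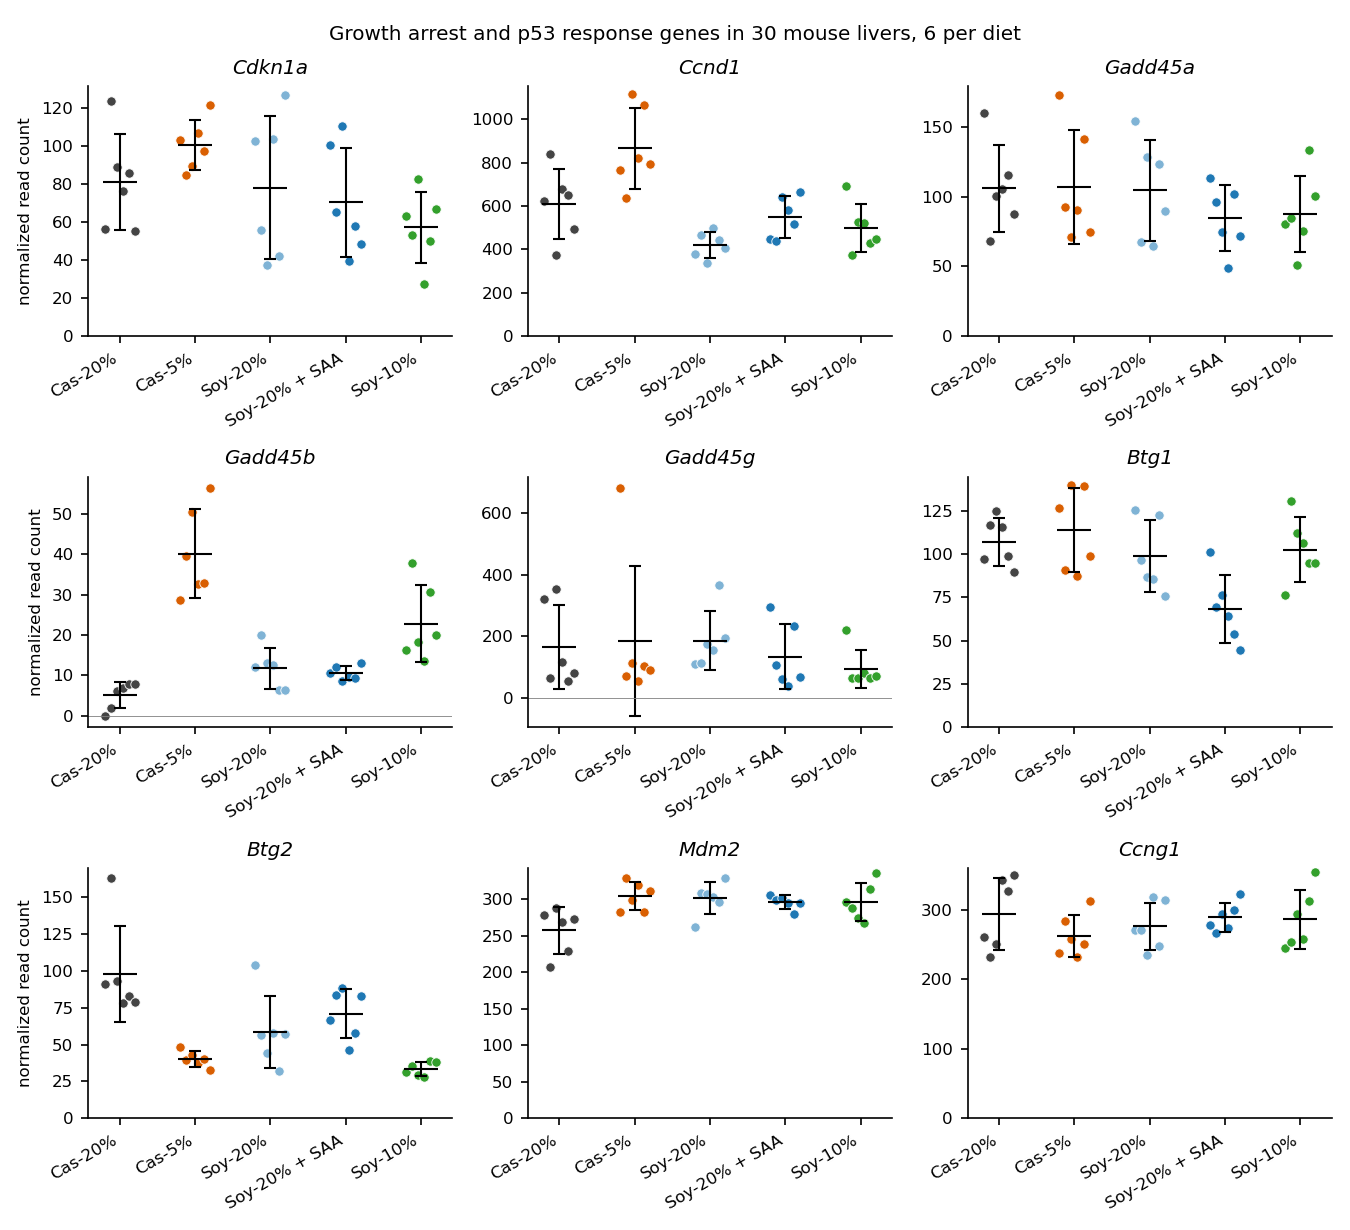
Normalized read count (vertical axis) of each of the 9 genes in 30 livers, with 1 point per liver and a bar for the mean and SD of the 6 livers of a diet. All 6 Cas-5% livers lie above all 6 Cas-20% livers for *Gadd45b* and below them for *Btg2*, and a single Cas-5% liver reaches 681 for *Gadd45g*.

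*Gadd45b* (chromosome 10, 80930073 to 80932204, gene positions throughout on GRCm38) encodes a small stress-induced protein that binds kinases of the p38 and JNK pathways, and in liver it is known as an early gene of regeneration. Normalized counts in the Cas-20% livers had a lowest value of 0, a median of 6.45 and a highest value of 7.97. In the Cas-5% livers they had a lowest value of 28.7, a median of 36.2 and a highest value of 56.3. The lowest Cas-5% liver was thus well above the highest control. Such separation upward was seen in 5.14% of all genes tested for casein. The log2 fold change was 2.96 (SE 0.35, 95% interval 2.23 to 3.70, edgeR adjusted p = 1.1e-05), a 7.81-fold rise. Raw counts were low, 0 to 8 reads in Cas-20% and 29 to 64 in Cas-5%, so the fold is less certain than the direction.

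Soy restriction raised *Gadd45b* less. Normalized counts ran from 13.6 to 37.9 on Soy-10% (median 19.2) and from 8.71 to 13.1 on Soy-20% + SAA (median 10.0), with no overlap between the groups. Of all genes tested, 2.90% were separated upward in this way. The log2 fold change was 1.11 (SE 0.27, edgeR adjusted p = 0.014). It was 1.01 (SE 0.43) when Soy-20% + SAA livers 3 to 6 were left out and 0.91 (SE 0.38) with the GC slope as a covariate. In neither was it called (edgeR adjusted p = 0.27 and 0.23). Against Soy-20%, whose livers ran from 6.32 to 20.0, it was 0.94 (SE 0.31, unadjusted p = 0.0076, edgeR adjusted p = 0.19), and only 2 of the 6 Soy-10% livers lay above all Soy-20% livers. The value thus lay between 0.91 and 1.11 in these 4 settings and was called in the one with all 12 Soy-10% and Soy-20% + SAA livers and no covariate. Against Soy-20% + SAA it was also called in DESeq2 (adjusted p = 0.0044) and with the replicate number as a block (edgeR adjusted p = 0.019). With any 1 of the 12 livers left out it was called too, with edgeR adjusted p of at most 0.034. The cause of the lost calls was not tested.

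*Btg2* (chromosome 1, 134075170 to 134079120) encodes an antiproliferative protein that recruits the CCR4-NOT deadenylase to shorten mRNA tails, and it is induced both by p53 and by growth factors as an immediate early gene. It fell under restriction of either protein. Cas-20% livers had 78.2 to 163 normalized counts (median 86.9) and Cas-5% livers 32.6 to 48.5 (median 39.8). All 6 restricted livers were below all 6 controls, as they were for 7.73% of all genes. The log2 fold change was -1.27 (SE 0.18, 95% interval -1.66 to -0.88, edgeR adjusted p = 8.3e-05), and it stayed between -1.33 and -1.07 with any 1 liver left out.

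On the soy diets *Btg2* ran from 28.2 to 38.7 on Soy-10% (median 33.5), from 46.0 to 88.1 on Soy-20% + SAA (median 75.1) and from 32.2 to 104 on Soy-20% (median 56.7). The Soy-10% livers were all below the Soy-20% + SAA livers, a separation found for 3.31% of genes, but 3 of 6 fell within the range of Soy-20%. Against Soy-20% + SAA the log2 fold change was -1.08 (SE 0.17, edgeR adjusted p = 0.0013). It was called at -1.17 without Soy-20% + SAA livers 3 to 6 (edgeR adjusted p = 0.0051) and at -1.27 with the GC covariate (0.0036). Against Soy-20% it was -0.80 (SE 0.22, unadjusted p = 0.0022) and missed the threshold in edgeR (adjusted p = 0.11) but not in DESeq2 (0.032). With any 1 of the 12 livers left out it was called for soy against Soy-20% + SAA, with edgeR adjusted p of at most 0.0041.

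**Figure D2:**
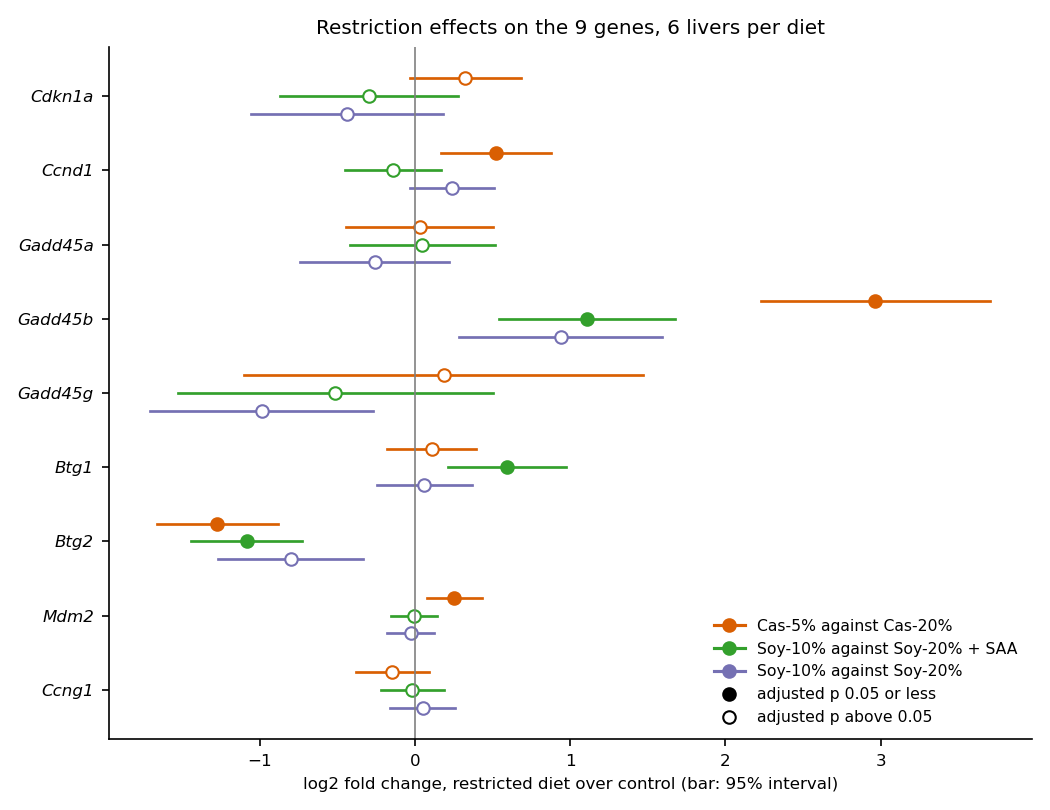
Log2 fold change (horizontal axis) of the 9 genes for casein restriction and for soy restriction against each soy control, with 95% intervals. Filled points were called. *Gadd45b* lies at 2.96, 1.11 and 0.94 and *Btg2* at -1.27, -1.08 and -0.80, and the intervals of *Gadd45g* are the widest.

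For casein restriction 4 of 9 genes were called, where 24.9% of all 12076 genes were. Those higher were *Gadd45b*, *Ccnd1* and *Mdm2* (3 of 9, background 11.6%) and *Btg2* was lower (1 of 9, background 13.3%). With the replicate number as a block 2 of 9 were called, and 2656 of all genes in place of 3008. Without Cas-5% liver 3 there were also 2 of 9, and in DESeq2 3 of 9. For soy restriction against Soy-20% + SAA 3 of 9 were called, where 17.0% of 11983 genes were. *Gadd45b* and *Btg1* were higher (2 of 9, background 8.51%) and *Btg2* lower (1 of 9, background 8.47%). Against Soy-20% edgeR called none of the 9, where 0.866% of 11897 genes were called. At an unadjusted p under 0.05 there were 3 of 9 (*Gadd45b*, *Gadd45g* and *Btg2*), against 12.3% of all genes, and DESeq2 called *Btg2*. Without Soy-20% + SAA livers 3 to 6, and also with the GC covariate, *Btg2* was the only one of the 9 called for soy restriction. Of all genes, 317 and 316 were called against Soy-20% + SAA in these fits, in that order, in place of 2035. Calls were thus lost over all genes and not only among the 9.

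*Btg1* (chromosome 10, 96617006 to 96622809), the close relative of *Btg2*, did not follow it. Cas-20% livers ran from 89.7 to 125 normalized counts and Cas-5% livers from 87.4 to 140, with 3 Cas-5% livers above all controls and 1 below them all (log2 fold change 0.11, SE 0.13, edgeR adjusted p = 0.61). Soy-10% livers ran from 76.1 to 131 and Soy-20% + SAA livers from 44.7 to 101. The log2 fold change of 0.59 (SE 0.18, edgeR adjusted p = 0.036) came with low values in Soy-20% + SAA liver 6 (44.7) and liver 5 (54.1), while liver 1 had 101. It fell to 0.25 without Soy-20% + SAA livers 3 to 6 (edgeR adjusted p = 0.58), to 0.25 with the GC covariate (0.54) and to 0.06 against Soy-20% (SE 0.14, adjusted p = 0.92).

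*Ccnd1* (chromosome 7, 144929931 to 144939925) encodes cyclin D1, which drives cells out of rest by activating the kinases Cdk4 and Cdk6. It was highest on Cas-5%, at 637 to 1115 normalized counts (median 806), and ran from 372 to 839 on Cas-20% (median 637). The groups overlapped, with 2 of 6 Cas-5% livers above all controls. The log2 fold change was 0.52 (SE 0.17, edgeR adjusted p = 0.031), and leaving out any of Cas-20% livers 3 and 6 or Cas-5% livers 3 and 5 took the adjusted p above the threshold, to at most 0.079. With the replicate number as a block it was 0.54 and was not called (edgeR adjusted p = 0.067). Soy restriction gave -0.14 against Soy-20% + SAA (SE 0.14, edgeR adjusted p = 0.52) and 0.24 against Soy-20% (SE 0.13, adjusted p = 0.48), and the former turned to 0.16 without Soy-20% + SAA livers 3 to 6. In order of the mean level *Ccnd1* stood at 866 ± 186 (SD, n = 6) on Cas-5%, 610 ± 161 on Cas-20%, 549 ± 97.1 on Soy-20% + SAA, 499 ± 112 on Soy-10% and 422 ± 59.6 on Soy-20%. Only the step from Cas-5% to Cas-20% was larger than the SD of either neighbour.

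*Cdkn1a* (chromosome 17, 29090976 to 29100727) encodes p21, the inhibitor of cyclin-dependent kinases through which p53 halts the cycle. Its normalized counts ran from 55.4 to 124 on Cas-20% (median 80.9), 84.4 to 121 on Cas-5% (median 100), 37.2 to 126 on Soy-20% (median 79.2), 39.3 to 110 on Soy-20% + SAA (median 61.5) and 27.1 to 82.3 on Soy-10% (median 58.1). No restricted diet was separated from its control. The log2 fold changes were 0.32 for casein (SE 0.17, 95% interval -0.03 to 0.68, edgeR adjusted p = 0.18), -0.29 for soy against Soy-20% + SAA (SE 0.27, interval -0.87 to 0.28, adjusted p = 0.47) and -0.44 against Soy-20% (SE 0.29, interval -1.05 to 0.18). Against Soy-20% + SAA the value was -0.55 (SE 0.28, adjusted p = 0.37) without livers 3 to 6 and -0.78 (SE 0.28, adjusted p = 0.16) with the GC covariate. With the GC covariate the casein value was 0.50 and was called (edgeR adjusted p = 0.046), and it was also called without Cas-20% liver 2 (adjusted p = 0.022).

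*Mdm2* (chromosome 10, 117688875 to 117710758) encodes the ubiquitin ligase of p53. It varied least of the group, with a coefficient of variation within diets of 7.56%, against 14.8% for the median gene. Values ran from 207 to 287 on Cas-20% (median 271) and from 282 to 330 on Cas-5% (median 305), so 4 of 6 Cas-5% livers exceeded every control. The log2 fold change was 0.25 (SE 0.08, edgeR adjusted p = 0.035). The call was lost in DESeq2 (adjusted p = 0.051), with the GC covariate (0.084), with the replicate number as a block (0.059) and without any 1 of 6 of the 12 livers (at most 0.090). Under soy restriction *Mdm2* changed by -0.00 against Soy-20% + SAA (SE 0.07, interval -0.15 to 0.15) and by -0.03 against Soy-20% (SE 0.07, interval -0.18 to 0.12). A change beyond 0.18 in either direction lay outside both of these intervals. Against Soy-20% + SAA it was -0.06 with the GC covariate (SE 0.09) and -0.04 without livers 3 to 6 (SE 0.10), both less precise.

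*Ccng1* (chromosome 11, 40748552 to 40755311) encodes cyclin G1, which guides a phosphatase to Mdm2. It was flat across the diets, with means between 263 ± 30.6 (SD, n = 6) on Cas-5% and 294 ± 51.8 on Cas-20%, and no neighbouring pair of diets in that order differed by more than the SD. Its log2 fold changes were -0.15 for casein (SE 0.11, interval -0.38 to 0.09, edgeR adjusted p = 0.37), -0.02 for soy against Soy-20% + SAA (SE 0.09, adjusted p = 0.92) and 0.05 against Soy-20% (SE 0.10, adjusted p = 0.91). 

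*Gadd45a* (chromosome 6, 67035096 to 67037457) and *Gadd45g* (chromosome 13, 51846678 to 51848468) encode proteins related to that of *Gadd45b*, and neither moved with it. *Gadd45a* had medians of 103 on Cas-20%, 91.3 on Cas-5%, 106 on Soy-20%, 85.3 on Soy-20% + SAA and 82.5 on Soy-10%, within a full range of 48.9 to 173. Its log2 fold changes were 0.03 for casein (SE 0.22, interval -0.45 to 0.51) and 0.05 for soy (SE 0.22, interval -0.42 to 0.52), and both turned negative with the GC covariate, as did the soy value without Soy-20% + SAA livers 3 to 6 (-0.28). *Gadd45g* was the most variable of the 9, with a coefficient of variation within diets of 82.5%, higher than in 99.9% of the genes tested. Single livers stood far above the rest on 3 diets, as Cas-5% liver 1 did at 681 (median of that diet 95.4), and on Cas-20% livers 1 and 3 were high at 322 and 354 (median 97.2). Its intervals were wide, -1.10 to 1.47 for casein and -1.53 to 0.50 for soy against Soy-20% + SAA (log2 fold change -0.51). The latter value was -1.13 (SE 0.43, edgeR adjusted p = 0.22) without Soy-20% + SAA livers 3 to 6 and -0.92 (SE 0.57, adjusted p = 0.44) with the GC covariate. Against Soy-20% 5 of 6 Soy-10% livers were below all controls (log2 fold change -0.99, SE 0.34, unadjusted p = 0.0099, edgeR adjusted p = 0.21), and the change was called without Soy-10% liver 1, which had 219 (-1.43, adjusted p = 0.022).

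The restriction effects of casein and soy were compared directly in the 24 livers of both pairs of diets with Soy-20% + SAA as the soy control, as the casein log2 fold change minus that of soy. *Gadd45b* was the only one of the 9 called, where 8.69% of 12532 genes were, with a difference of 1.85 (SE 0.48, interval 0.87 to 2.84, edgeR adjusted p = 0.0195). It was called with Soy-20% as the soy control (2.02, adjusted p = 0.017) and with the GC covariate (adjusted p = 0.046), and was 1.94 and not called without Soy-20% + SAA livers 3 to 6 (adjusted p = 0.12). The controls enter this difference, and *Gadd45b* was lower on Cas-20% (0 to 7.97 normalized counts) than on Soy-20% + SAA (8.71 to 13.1). For *Btg2* the difference was -0.19 (SE 0.26, interval -0.73 to 0.34, adjusted p = 0.69), or -0.48 (SE 0.31, adjusted p = 0.41) when soy restriction was taken against Soy-20%, neither of which was called. *Ccnd1* gave 0.65 (SE 0.24, adjusted p = 0.081), which went down to 0.27 with Soy-20% as the soy control, 0.35 without the 4 livers and 0.41 with the GC covariate. The difference was 0.61 for *Cdkn1a* (SE 0.33, adjusted p = 0.25, and 0.86 without the 4 livers), 0.69 for *Gadd45g* (SE 0.86, adjusted p = 0.66, and 1.31 without them), 0.25 for *Mdm2* (SE 0.11, adjusted p = 0.13) and -0.49 for *Btg1* (SE 0.23, adjusted p = 0.18), the last of which was -0.15 without the 4 livers.

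**Figure D3:**
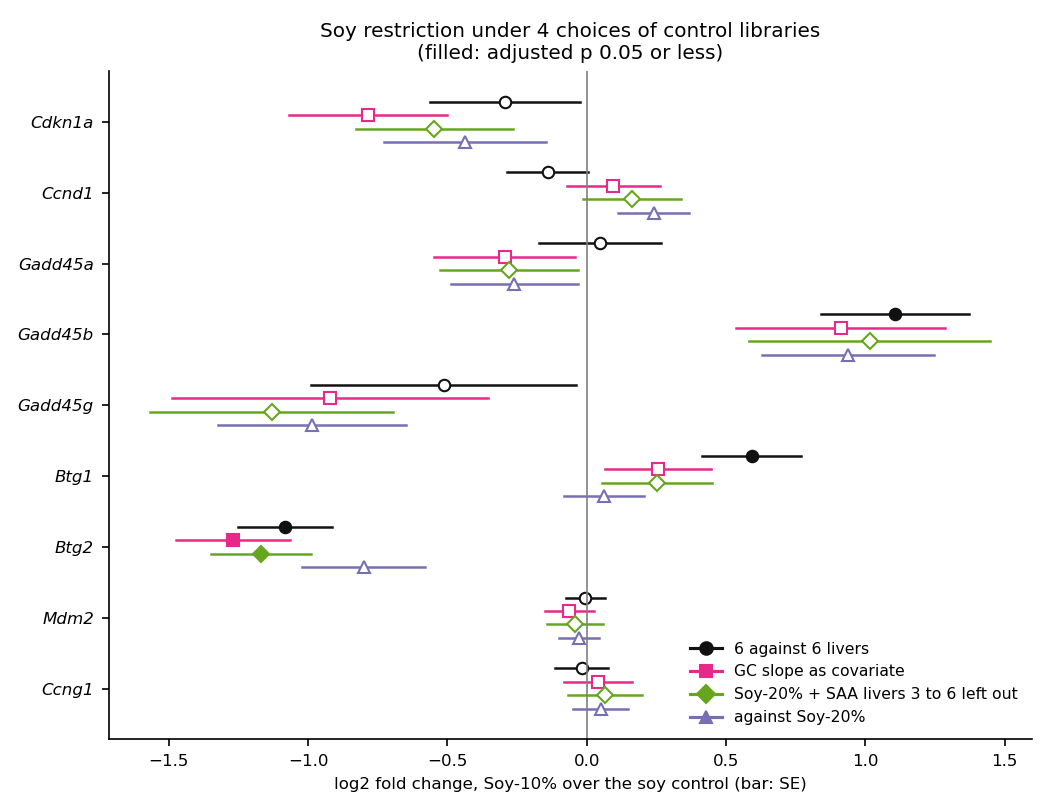
Log2 fold change of the 9 genes for soy restriction (horizontal axis, bars are SE) with all 12 livers, with the GC slope as a covariate, without Soy-20% + SAA livers 3 to 6, and against Soy-20%. Filled symbols were called. *Btg2* lies between -0.80 and -1.27 and *Gadd45b* between 0.91 and 1.11 in the 4 settings, while *Btg1* moves from 0.59 to 0.06.

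The control diets were compared with each other for protein source at a like content of methionine and cysteine, and for the addition of both to soy. Between Soy-20% and Soy-20% + SAA edgeR called none of the 9, where 0.00838% of 11932 genes (1 gene) was called. With 1 liver left out that count ran from 0 to 1587 genes, the latter without Soy-20% + SAA liver 1, so the background share rests on single libraries. At an unadjusted p under 0.05 there were *Ccnd1* (log2 fold change -0.37, SE 0.12) and *Btg1* (0.54, SE 0.19), 2 of 9 against 24.2% of all genes, and DESeq2 called none of the 9. Without Soy-20% + SAA livers 3 to 6 these values went to -0.08 and 0.20, and with the GC covariate to -0.19 and 0.20. Between Cas-20% and Soy-20% + SAA edgeR called none of the 8 tested, where 2.43% of 11988 genes were called. These 291 genes became 9 without Soy-20% + SAA liver 6 and 1817 without liver 1. At an unadjusted p under 0.05 there were *Btg1* (0.65, SE 0.17, edgeR adjusted p = 0.054, called by DESeq2 at 0.011), *Btg2* (0.46, SE 0.20) and *Mdm2* (-0.20, SE 0.08), 3 genes, against 26.2% of all. Without the 4 livers these were 0.32 (adjusted p = 0.74), 0.38 and -0.24, and with the GC covariate 0.40 (adjusted p = 0.36), 0.44 and -0.26. *Gadd45b* was too low for the test in this pair. Each of its 6 Cas-20% values, at most 7.97, was below each Soy-20% + SAA value, at least 8.71, and 1.18% of genes were separated downward in this way.

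Cas-5% and Soy-10%, which are close in methionine and cysteine, were set against each other. Higher on Cas-5% were *Cdkn1a* (log2 fold change 0.83, SE 0.17, edgeR adjusted p = 0.0045), *Ccnd1* (0.82, SE 0.14, adjusted p = 0.0012) and *Gadd45b* (0.81, SE 0.24, adjusted p = 0.037), 3 of 9 where 10.7% of 12041 genes were called. All 6 Cas-5% livers exceeded all 6 Soy-10% livers in *Cdkn1a*, at 84.4 or more against 82.3 or less, as in 1.77% of genes. *Btg2* was not called (0.28, SE 0.14, adjusted p = 0.23). With 1 fit over all 30 livers *Cdkn1a* (adjusted p = 0.063) and *Gadd45b* (0.062) missed the threshold, and *Gadd45b* missed it in 7 of 12 fits with 1 liver left out (Cas-5% livers 2, 3 and 6 and Soy-10% livers 1, 3, 4 and 6, edgeR adjusted p up to 0.088). These livers also enter the comparisons above, so the 3 sets of values are not independent.

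Other genes of the p53 pathway were called in both directions. Of a list of 40 further p53 targets and regulators 31 were tested for casein restriction, of which 3 rose (background 11.6%) and 3 fell (13.3%), with a median log2 fold change of -0.05 beside 0.02 for all genes. *Ephx1*, a detoxifying epoxide hydrolase, rose by 1.195 (SE 0.11, edgeR adjusted p = 8.5e-07) and *Sesn2*, a sensor of leucine and brake on mTORC1, by 0.80 (SE 0.13, adjusted p = 0.00023). *Plk3*, a stress kinase, changed by -1.19 (SE 0.23, adjusted p = 0.0012) and *Bbc3*, which encodes the death protein PUMA, by -0.90 (SE 0.20, adjusted p = 0.0030). After soy restriction 1 rose and 3 fell of 31 tested, beside 17.0% of all genes called (median -0.01, all genes -0.01). These were *Ephx1* (0.69, SE 0.10), *Bbc3* (-0.57, SE 0.12), *Fdxr* (-0.62, SE 0.14), a mitochondrial electron carrier, and *Plk3* (-1.14, SE 0.30), with edgeR adjusted p of 0.00099, 0.0072, 0.012 and 0.020. *Ephx1* remained called without Soy-20% + SAA livers 3 to 6 (0.80, adjusted p = 0.0090), and it was then the only gene of this list called, with *Bbc3* at -0.53, *Plk3* at -0.70 and *Fdxr* at -0.21. With the GC covariate *Bbc3* was called as well (-0.59, adjusted p = 0.049), with *Plk3* at -0.97 and *Fdxr* at -0.23.

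Genes that drive the cell cycle were read next, where 24.9% of all genes were called for casein and 17.0% for soy. Of 30 cyclins, kinases and replication genes 23 were tested for casein, with *Birc5*, an inhibitor of apoptosis and part of the mitotic machinery, at -1.08 (SE 0.33, edgeR adjusted p = 0.024) and *Mcm7*, a subunit of the replicative helicase, at 0.37 (SE 0.12, adjusted p = 0.031), and no other was called. For soy, *Ccne2*, a cyclin of entry into replication, changed by -0.98 (SE 0.27, adjusted p = 0.024) and its kinase partner *Cdk2* by 0.69 (SE 0.19, adjusted p = 0.026), 2 of 22 tested. Neither was called without Soy-20% + SAA livers 3 to 6, at -0.77 and 0.14, or with the GC covariate.

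Of 17 other growth arrest genes tested, 6 fell (13.3% of all genes did) and 1 rose (11.6%) after casein restriction. *Gas2*, a cytoskeletal protein named for its rise in resting fibroblasts, changed by -1.25 (SE 0.10, edgeR adjusted p = 1.8e-07), *Foxo3*, a transcription factor held back by insulin signalling, by -0.58 (SE 0.08, adjusted p = 6.2e-05), and *Tob1*, a relative of the *Btg* genes, by -0.87 (SE 0.13, adjusted p = 0.00016). *Cdkn2c*, an inhibitor of Cdk4 and Cdk6, rose by 1.12 (SE 0.22, adjusted p = 0.0011). After soy restriction *Cdkn2c* (0.88, SE 0.18, adjusted p = 0.0067) and *Cdkn2d*, another such inhibitor (0.62, SE 0.13, adjusted p = 0.0060), rose and *Foxo3* fell (-0.63, SE 0.13, adjusted p = 0.0064), 3 of 17 tested beside 17.0% of all genes. Without Soy-20% + SAA livers 3 to 6 *Cdkn2d* was called (0.72, adjusted p = 0.047), while *Cdkn2c* was at 0.58 and *Foxo3* at -0.28, and against Soy-20% *Cdkn2c* (0.83, adjusted p = 0.047). With the GC covariate no gene of this list was called for soy against Soy-20% + SAA. *Gas2*, *Tob1*, *Cdkn2d* and *Gas1* differed between the casein and soy effects (-1.12, -1.51, -0.93 and -0.84, edgeR adjusted p = 0.00022, 0.0050, 0.0032 and 0.030), and all but *Gas1* were called without those 4 livers too. These were 4 of 17 tested, all lower, where 5.49% of all genes were lower.

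Since *Btg2* is also an immediate early gene, 14 such genes were read beside it. For casein restriction 12 were tested, 5 fell (13.3% of all genes did) and 1 rose (11.6%), with a median log2 fold change of -0.32. *Zfp36*, which speeds the decay of AU-rich mRNA, changed by -0.94 (SE 0.12, edgeR adjusted p = 2.5e-05), *Junb*, a subunit of AP-1, by -0.92 (SE 0.13, adjusted p = 6.9e-05), *Dusp1*, a phosphatase of MAP kinases, by -1.15 (SE 0.20, adjusted p = 0.00041) and *Nr4a1*, an orphan nuclear receptor, by -1.95 (SE 0.39, adjusted p = 0.0014). For soy restriction 11 were tested, 3 rose (8.51% of all genes did) and 1 fell (8.47%), with a median of 0.36. *Zfp36* (0.90, SE 0.21), *Egr1* (1.45, SE 0.38) and *Ier3* (0.72, SE 0.23) were higher and *Atf3* (-1.43, SE 0.28) lower, with adjusted p of 0.012, 0.020, 0.045 and 0.0055. No gene of this list was called without Soy-20% + SAA livers 3 to 6, where *Zfp36* was at 0.40, *Egr1* at 1.16 and *Ier3* at 0.74, or with the GC covariate. Against Soy-20% *Dusp1* fell (-0.80, SE 0.15, adjusted p = 0.014). The casein and soy effects differed for *Zfp36* (-1.84, SE 0.25, adjusted p = 0.00014), *Junb* (-1.28), *Dusp1* (-0.97) and *Nr4a1* (-2.11), and of these *Zfp36* was called without the 4 livers as well (-1.35, adjusted p = 0.0067). These were 4 of 12 tested, all lower, where 5.49% of all genes were lower.

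**Figure D4:**
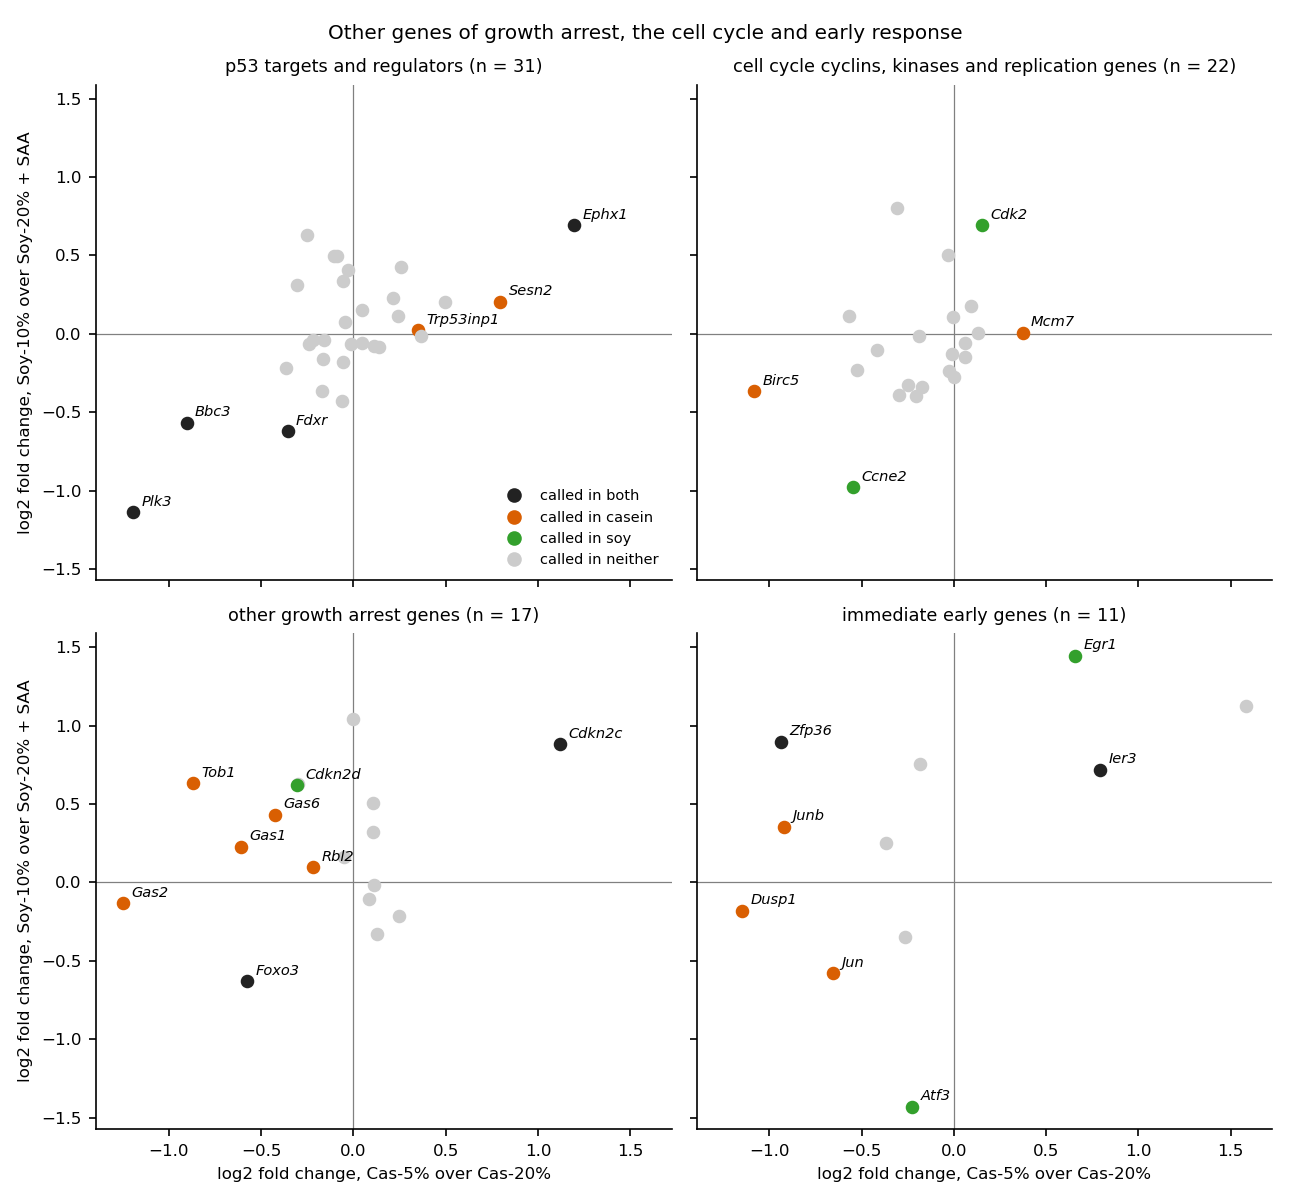
Log2 fold change for casein restriction (horizontal axis) against that for soy restriction (vertical axis) of the genes of 4 lists tested in both, with 1 point per gene and names where a gene was called. *Ephx1*, *Plk3*, *Bbc3*, *Fdxr*, *Foxo3*, *Cdkn2c* and *Ier3* were called in the same direction in both comparisons, and *Zfp36* in opposite directions. *Nr4a1* was too low for the soy test and is not drawn.

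Bulk liver cannot tell fewer cells of a type from less RNA per cell, so markers of other cells were read in the same fits. Of all genes, 24.9% were called for casein restriction, 11.6% higher and 13.3% lower. For casein restriction none of the 7 Kupffer cell and macrophage markers was called, and their sum was 3021 ± 560 (SD, n = 6) normalized counts on Cas-20% and 2989 ± 439 on Cas-5%, with *Cd5l* the most abundant. Of 7 stellate cell and fibroblast markers *Reln* (0.44) and *Dcn* (0.32) rose, and their sum went from 4470 ± 338 to 5363 ± 616, most of it *Dcn*. Of 6 sinusoidal endothelial markers *Oit3* and *Kdr* rose, with sums of 2754 ± 141 and 2989 ± 119 (*Kdr* the most abundant). Of 5 erythroid markers 4 fell, from a sum of 24380 ± 6835 to 16122 ± 3648, led by *Hbb-bs*. On Soy-20% + SAA that sum was 14605.5 ± 2611. Between the Cas-20% and Soy-20% + SAA controls, 4 of the 5 were called higher on Cas-20%, where 2.43% of all genes were called. Lymphocyte markers (5 of 7 in the table, led by *Cd79b*) summed to 37.2 ± 10.4 and 44.3 ± 5.28, and neutrophil markers (2 of 5, led by *S100a8*) to 58.6 ± 15.4 and 55.8 ± 11.2, with none called. Of 5 cholangiocyte markers, led by *Sox9*, 2 could be tested and none was called, at sums of 526 ± 74.7 and 435 ± 50.9. Among the hepatocyte markers *Alb* (0.35) and *Hnf4a* (0.27) rose and *Cps1*, the first enzyme of the urea cycle, fell (-1.40).

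For soy restriction against Soy-20% + SAA the Kupffer cell marker *Marco* and the endothelial marker *Oit3* rose (2.35 and 0.35) and the cholangiocyte marker *Sox9* fell (-0.62), and no stellate, erythroid, lymphocyte or neutrophil marker was called. Of all genes, 8.51% were called higher and 8.47% lower. No Kupffer cell or endothelial marker was called with the GC covariate, without Soy-20% + SAA livers 3 to 6, or against Soy-20%. A cholangiocyte marker was called lower in each of these fits. Sums were 3033 ± 373 on Soy-20% + SAA and 3254 ± 731 on Soy-10% for the Kupffer cell list, and 432 ± 67.8 and 314 ± 31.9 for the cholangiocyte list. Of the hepatocyte markers *Apoa1* fell (-0.31). Summed stellate and fibroblast markers were higher on Cas-5% (5363 ± 616) than on Soy-10% (4395 ± 210), with 5 of 7 called, where 10.7% of all genes were. These markers stood beside the higher *Ccnd1*, *Cdkn1a* and *Gadd45b* of that pair. Of 2 cholangiocyte markers tested in that pair 1 was also called higher, and of 5 erythroid markers 1 was lower, with no other marker called. The part of these cells in the results on the 9 genes was not tested.

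To place the 5 genes called over all diets, the 3 genes with the most similar profile of log2 CPM (counts scaled to library size, prior count of 2) over the 30 livers were listed for each among 12560 others. The 30 livers share 5 diet means, so Pearson's r is given with the value after removal of the diet means. For *Gadd45b* these were *Slc17a1* (r = 0.89, within diets 0.60), *Ptbp3* (0.87, 0.55) and *Gm15441* (0.87, 0.58), and the reads of the last may not be separable from a gene on the opposite strand. For *Btg2* they included *Stra6l* (0.86, 0.57) and *H2-Q1* (0.84, 0.42), a member of a family of similar genes. *Ccnd1* was most like *Ints5* (0.74, 0.71), *Arhgef2* (0.70, 0.36) and *Zbtb4* (0.68, 0.18). *Btg1* was most like *Ntn1* (0.83, 0.67), *Slc19a2* (0.82, 0.63) and *Pabpc1* (0.81, 0.65), and *Mdm2* most like *Esf1* (0.78, 0.63), *Ppp4r2* (0.78, 0.65) and *Snrpb2* (0.74, 0.59). None of the genes named here was itself one of the 9.

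The 9 genes were also compared with each other from liver to liver, with the diet means removed. Of 36 pairs over 30 livers none passed a permutation test within diets after Benjamini-Hochberg adjustment. The pair with the smallest p was *Gadd45a* and *Gadd45g* (Pearson's r = 0.52, permutation p = 0.0056, adjusted p = 0.14, and Spearman's rho = 0.50, permutation p = 0.0084), with r = 0.47 when the 2 livers farthest from the median of *Gadd45a* were left out. *Cdkn1a* and *Btg2* followed (r = 0.55, permutation p = 0.0080, adjusted p = 0.14, rho = 0.47, p = 0.020 by permutation), with r = 0.53 without the 2 farthest livers.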

How the data were processed

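Liver RNA of 30 mice, 6 per diet, had been sequenced from mRNA 3′ ends. The authors deposited raw counts per gene, not normalized, and a normalized signal, which they made by dividing those counts by DESeq2 size factors. The submitters' notes name R 4.0.3, DESeq2 1.30 and the build GRCm38 (mm10). Mapping and counting were done by the authors with Lexogen's QuantSeq pipeline for forward libraries on Bluebee. The aligner and strand setting inside it are not given in the sources used here. Depth was 7694015 to 14565542 counts per liver, and it limits *Gadd45b*, at 0 to 64 reads, most. Intervals are at 95%.

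Here edgeR 4.0.16 in R 4.3.3 tested raw counts across all genes (filterByExpr, TMM, quasi-likelihood F test, two-sided, Benjamini-Hochberg threshold 0.05), with only the livers compared in each fit. The fits were tested on simulated data with known changes. Alternatives were DESeq2 1.42.0, RLE size factors, no filter, the replicate number as a block, the GC slope of each library (last 200 nucleotides, 11094 genes) as a covariate, all 30 livers in 1 fit, and libraries left out. Motifs were matched by letters. Correlations between members used log2(normalized count + 1) and 100000 permutations.

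The members and lists were chosen with earlier results of these data known. All 9 members were named, and from each list up to 4 called genes with the smallest adjusted p for casein and for soy against Soy-20% + SAA. *Gas1*, the hepatocyte and other cell markers, and genes in the caption are named outside that rule, after their values were seen. Replicate numbers did not pair the livers. Of the genes most alike in profile, 1 is not reported here.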

Additional observations from a re-analysis of the deposited data

Results flagged for a closer look

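Of 45 groups of 6 livers (9 genes in 5 diets), 5 had a liver far from the other 5 by Dixon's test on the gap to the nearest liver, and chance gives about 1 in 20 groups. For *Gadd45g* these were Cas-5% liver 1 (681 normalized counts), Soy-20% liver 5 (368) and Soy-10% liver 1 (219). For *Btg2* they were Cas-20% liver 2 (163) and Soy-20% liver 1 (104), both high. Without Cas-20% liver 2 the casein fall of *Btg2* was -1.07, the smallest of the values with a liver left out.

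The casein effect on *Gadd45b* exceeded the soy effect by 1.85 on the log2 scale (SE 0.48, edgeR adjusted p = 0.0195 by a test of the difference itself), with Soy-20% + SAA as the soy control. Between the restricted diets alone, Cas-5% exceeded Soy-10% by 0.81 (SE 0.24). The control medians were 6.45 normalized counts on Cas-20% and 10.0 on Soy-20% + SAA, a pair too low for the test. The part of the controls in the difference was not tested. All 6 Soy-10% livers were above those of Soy-20% + SAA, and 2 of 6 were above all Soy-20% livers. Without Soy-20% + SAA livers 3 to 6 the difference was 1.94 and was not called (edgeR adjusted p = 0.12).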

How the results depend on the processing

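With any 1 liver left out, the casein changes of *Gadd45b* (2.70 to 3.13) and *Btg2* (-1.33 to -1.07) and the soy fall of *Btg2* against Soy-20% + SAA (-1.18 to -1.02) were called. They were also called under every other alternative run, in which *Btg2* reached -1.06 for casein and -1.27 for soy with the GC covariate. The number of the 9 genes called was less stable. Without Soy-20% + SAA livers 3 to 6 it was 3 over the 5 diets, 1 for soy against Soy-20% + SAA and 0 for the difference between casein and soy. With the GC covariate it was 4 over the 5 diets and 1 for soy against Soy-20% + SAA. In DESeq2 it was 1 for Soy-10% against Soy-20% (*Btg2*) and 1 for Cas-20% against Soy-20% + SAA (*Btg1*). In 1 fit of all 30 livers it was 1 for Soy-20% against Soy-20% + SAA (*Btg1*), 1 for Cas-20% against Soy-20% + SAA (*Btg1*) and 1 for Cas-5% against Soy-10% (*Ccnd1*). The cause was not tested. With 1 liver left out the number ran from 4 to 5 over the 5 diets, from 2 to 4 for casein (2 without Cas-5% liver 3), from 2 to 3 for soy against Soy-20% + SAA, from 0 to 1 against Soy-20%, from 0 to 2 for Soy-20% against Soy-20% + SAA (2 without Soy-20% + SAA liver 1), from 0 to 1 for Cas-20% against Soy-20% + SAA, from 2 to 3 for Cas-5% against Soy-10% and from 1 to 3 for the difference. *Btg1* lost its call for soy in 8 of 12 such fits, and *Gadd45b* lost that of Cas-5% against Soy-10% in 7 of 12.

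The replicate numbers did not pair the livers, since same-numbered livers correlated at between -0.155 and 0.183. With the replicate number as a block, 2 of the 9 genes were called for casein, as *Ccnd1* (0.54, edgeR adjusted p = 0.067) and *Mdm2* (0.26, 0.059) missed the threshold, and *Gadd45g* turned to -0.030. No other call on the 9 genes changed with the block, while for Cas-20% against Soy-20% + SAA 141 genes of the whole table were called in place of 291.

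Uncalled values changed sign. With the GC covariate these were *Gadd45a* (-0.31) and *Gadd45g* (-0.63) for casein, *Ccnd1* (0.10), *Gadd45a* (-0.29) and *Ccng1* (0.041) for soy against Soy-20% + SAA, and *Gadd45a* (0.38) for the difference. Without Soy-20% + SAA livers 3 to 6 they were *Ccnd1* (0.16), *Gadd45a* (-0.28), *Ccng1* (0.066) and, for the difference, *Gadd45a* (0.30). With Soy-20% as the soy control they were *Gadd45a* (0.29) and *Btg1* (0.041), both for the difference. With 1 liver left out the ranges that crossed 0 were, for casein, *Gadd45a* -0.16 to 0.18 and *Gadd45g* -0.91 to 0.55. For soy against Soy-20% + SAA they were *Gadd45a* -0.10 to 0.16, *Mdm2* -0.044 to 0.023 and *Ccng1* -0.087 to 0.023, and against Soy-20% *Btg1* -0.026 to 0.14, *Mdm2* -0.069 to 0.00070 and *Ccng1* -0.021 to 0.10. For the difference they were *Gadd45a* -0.21 to 0.13, *Gadd45g* -0.41 to 1.14 and *Btg2* -0.26 to 0.014.

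Over the whole table, soy against Soy-20% + SAA gave 2035 called genes, and 316 with the GC covariate, 317 without Soy-20% + SAA livers 3 to 6 and 3077 in 1 fit of all livers. The 5 diets gave 5450, and 3537 and 3433 in the first and second of these. Soy-10% against Soy-20% gave 103, with 217 in DESeq2 and 62 in 1 fit of all livers. Soy-20% against Soy-20% + SAA gave 1, with 873 in DESeq2, 1793 in 1 fit of all livers, 2 with RLE or no filter and 0 with the GC covariate or without the 4 livers. Cas-20% against Soy-20% + SAA gave 291, with 1135, 2331, 5 and 3 in DESeq2, 1 fit, the GC covariate and without the 4 livers. The difference gave 1089, and 522 and 296 in the last 2 of these. With 1 liver left out these counts ran from 1219 to 3119 for soy against Soy-20% + SAA, 50 to 146 against Soy-20%, 0 to 1587 for Soy-20% and 9 to 1817 for Cas-20% against Soy-20% + SAA, and 719 to 1941 for the difference. In each of these but Soy-10% against Soy-20% the highest count came without Soy-20% + SAA liver 1.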
